A study of Mus musculus with 4 samples.

Results

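Gpnmb-high macrophages chosen by a fixed rule were 410 of the 10763 cell barcodes sequenced from the injured mouse spinal cord at 3 days post-injury (dpi), in a series of 31660 barcodes from 4 libraries. The rule chose them by their counts of RNA molecules, each molecule being tagged by a unique molecular identifier (UMI). A barcode was kept with at least 600 genes, at least 3000 UMIs and at most 10% mitochondrial UMIs, which left 7215 barcodes. Of these, 7016 had a UMI of Csf1r or Cd68, 2 genes of macrophages and microglia. Cells with a UMI of Ly6c2, a gene of inflammatory monocytes, were removed (1644 cells). Cells with at least 3 of 6 microglial genes (Tmem119, P2ry12, Sall1, Gpr34, Olfml3 and Slc2a5) were removed next (1359 cells), as were cells with a UMI of the lymphocyte genes Cd3e and Cd79a or the neutrophil gene Csf3r (1592 cells). The 2421 cells that remained are called the macrophage gate below. Within it, 814 cells had at least 1000 counts of Gpnmb per 1000000 UMIs of the cell (counts per 1000000, CPM), and 410 of those met the whole rule, or 16.9% of the gate (95% exact binomial interval 15.5 to 18.5%).

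The series profiled CD45+ immune cells of C57BL/6 mice by droplet single-cell RNA sequencing, with male and female mice in the study. The 3 dpi and 14 dpi libraries came from 3-month-old mice with a moderate contusion at thoracic segment T10. The study describes both as dissociated with actinomycin D (ActD), a transcription blocker. The 2 sham libraries are labelled as healthy spinal cords. The study calls this group sham and describes sham mice as having the laminectomy without contusion. These libraries were dissociated with the standard protocol or with ActD. Each condition was 1 library, the number of mice in a library is not stated, and cells could not be traced to a mouse. The libraries held 6827 barcodes and 60412094 UMIs (sham, standard), 2439 and 27447471 (sham, ActD), 10763 and 125270696 (3 dpi) and 11631 and 129935880 (14 dpi). The 3 dpi library shared 22, 11 and 36 barcode sequences with the standard sham, ActD sham and 14 dpi libraries, and 3 of the 410 cells carried such a barcode. With 1 library per condition no difference below has a replicate check, so no p-value is given. The 95% intervals, exact Poisson for a level and exact conditional for a ratio, cover counting error only.

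GPNMB is a transmembrane glycoprotein of lysosomes, melanosomes and the cell surface, and its gene is switched on in phagocytes with heavy lysosomal or lipid load, where the MiT/TFE transcription factors drive lysosomal genes. Macrophages that clear myelin or dying cells take up lipid by receptors, break it down in acid lysosomes, store it with fatty acid binding proteins and perilipins, and export cholesterol through ABC transporters onto apolipoprotein E.

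The values that chose the cells are a description only. Gpnmb (chromosome 6, 49036546 to 49070929, plus strand, GRCm38) had a median of 2858 CPM per cell, from 1007 to 15629. A Gpnmb UMI was found in 99.0% of the 410 cells after each cell was thinned to 3000 UMIs (median depth before thinning 15046 UMIs). T cells, which should lack the transcript, gave a background for such shares: 77 cells of the library had a Cd3e UMI and none of Csf1r, Cd68, Cd79a or Csf3r, at a median depth of 4230 UMIs. After thinning, 54.5% of those T cells had a Gpnmb UMI. Around the Gpnmb threshold, 22 cells just outside it had Fabp5 at 4274 CPM and Spp1 at 21937, and 42 cells just inside it had 7871 and 23763.

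The label of macrophages was checked on the marker genes fixed for it. Lyz2, lysozyme, stood at 25188 CPM over the summed cells against 2257 in T cells, and Mertk, a receptor for dying cells, at 77.9 against 0 UMIs. The other 6 macrophage genes that the rule had not used also stood above the T cells, among them Aif1 at 287 against 54.7 and Itgam at 211 against 80.6. Against the Gpnmb-low macrophages described next, the list's median log2 ratio was 0.26, and −0.14 when cells with a dendritic cell UMI were left out. Of the other markers named for these cells, Fabp5, a fatty acid binding protein, had a median of 8880 CPM per cell (0 to 46684). Spp1, the secreted glycoprotein osteopontin, had a median of 29025 (1303 to 141036), and Ctsd, the lysosomal protease cathepsin D, had a median of 14987 (2829 to 30226). Detection alone did not set these 3 genes apart from background, since a Ctsd and an Spp1 UMI was also found in all 77 T cells after thinning, and a Fabp5 UMI in 83.1% of them. By the rule itself the cells could still hold up to 2 of the 6 microglial genes, and 80 held 0, 182 held 1 and 148 held 2. The summed microglial genes stood at 257 CPM, led by Fcrls, beside 491 in the Gpnmb-low macrophages and 1705 in microglia of the library. Of the 6 microglial genes, which the rule itself had limited, Olfml3 was above the T cell level, at 115 CPM against 37.4, with 461 in the microglia, while P2ry12 stood at 9.58 against 11.5, Tmem119 at 21.2 against 23.0 and Gpr34 at 4.63 against 11.5. Sall1 stood at 0.927 (6 UMIs) and Slc2a5 at 0, both with 0 UMIs in the T cells. After thinning, an Olfml3 UMI was found in 26.3% of the 410 cells, 10.4% of T cells and 56.9% of microglia.

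The cells were compared first with Gpnmb-low macrophages, the 850 cells of the same gate and library that met the whole rule except that Gpnmb lay under 1000 CPM. These made up 35.1% of the gate, and the gate also held cells that were in neither set. They were shallower, with a median of 8483 UMIs and 2391 genes against 15046 UMIs and 3229 genes, and had 3.71% against 3.27% mitochondrial UMIs. Gpnmb-low macrophages were a mixed set. A UMI of Flt3, Zbtb46, Xcr1, Clec9a, Cd209a, Ccr7 or Ciita, genes of dendritic cells and of their antigen presentation, was found in 47.2% of them and in 6.59% of the 410 cells. Leaving out all cells with such a UMI gave a second form of the comparison, chosen after seeing the data, with 449 Gpnmb-low cells at a median of 7900 UMIs. It also left out 27 of the 410 cells. Other cell types stayed in it: endothelial genes had a median log2 ratio of −5.07 there (4 of 4 past 2-fold lower in the Gpnmb-high cells), fibroblast genes −4.86 (2 of 2), T cell genes −3.45 (3 of 3) and NK cell genes −3.41 (2 of 2). The rule chose the 2 sets by Gpnmb, so every difference between them is a description. Levels below are CPM over the summed cells, ratios are log2 of the level in the 410 cells over the other set, and a gene was compared with at least 100 UMIs in the 2 sets. A gene higher than in Gpnmb-low cells was not always higher than in the whole gate. Over the whole gate Fabp5 stood at 6705, Spp1 at 27498 and Ctsd at 9523 CPM, below the 410 cells. Hmox1 stood at 4131 there, Plin2 at 1485, Thbs1 at 1474 and Pf4 at 4790, all above the 410 cells.

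Against Gpnmb-low macrophages many genes of lysosomes and some of lipid uptake were higher in the 410 cells, and those of antigen presentation, of inflammation and several chemokines were lower. Of 8115 genes compared, 173 were past 2-fold higher (2.13%) and 815 past 2-fold lower (10%), with a median ratio of −0.20 over all genes. Scaling by TMM or by the median of ratios added 0.27 or 0.29 to each ratio, so that 62.3% or 60.4% of the genes past 2-fold were lower, in place of 82.5%. Without cells that had a dendritic cell UMI, 7044 genes were compared, of which 64 were past 2-fold higher (0.909%) and 399 lower (5.66%).

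Of the genes that reached 500 UMIs, the 5 with the highest ratio were Fabp4, Ahnak2, Fabp5, Htr2b and Gdf15. Fabp4 and Fabp5 bind fatty acids in the cytosol. Fabp4 stood at 199 CPM (188 to 210) against 21.4, a log2 ratio of 3.21 (2.99 to 3.45), and Fabp5 at 11070 against 1834 (2.59, 2.57 to 2.62). A Fabp4 UMI was found in 204 of the 410 cells, with a highest cell of 9700 CPM. After thinning, a Fabp4 UMI was found in 27.1% of the 410 cells, 3.41% of Gpnmb-low cells and 1.30% of T cells. Ahnak2, a giant scaffold protein, stood at 117 against 18.6 (2.64, 2.40 to 2.91), and after thinning its UMI was found in 22.9% of the 410 cells and 2.60% of T cells. Htr2b, a serotonin receptor, stood at 69.4 against 14.7 (2.23).

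Gdf15 encodes a stress-induced cytokine of the TGF-beta family. It stood at 63.6 CPM (57.6 to 70.1) against 14.4, a log2 ratio of 2.14 (1.85 to 2.46). Its distribution was far from uniform: 149 of the 410 cells had a Gdf15 UMI and the highest cell stood at 1973 CPM. After thinning, 14.9% of the cells had a Gdf15 UMI, against 2.71% of Gpnmb-low cells and 2.60% of T cells, so the share in Gpnmb-low cells was at that background. Among the next 10 genes were the glutathione-conjugating enzymes Gstm1 (153 against 34.7, 2.14) and Mgst1 (244 against 55.7, 2.13), the vesicle membrane protein Syngr1 (778 against 177, 2.14), the coagulation factor F7 (176 against 41.8, 2.07) and the lysosomal exonuclease Pld3 (324 CPM, 1.85). After thinning, a Syngr1 UMI was found in 79.8% of the 410 cells, 25.9% of Gpnmb-low cells and 10 of 77 T cells. The others were Spp1 (38272 against 10794, 1.83), Kif3a, a kinesin motor (1.82), Apoe, the carrier of exported cholesterol (36284 against 10526, 1.79), Ctsd (15078 against 4405, 1.78) and Creg1, a lysosomal glycoprotein (945 against 281, 1.75).

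**Figure D1:**
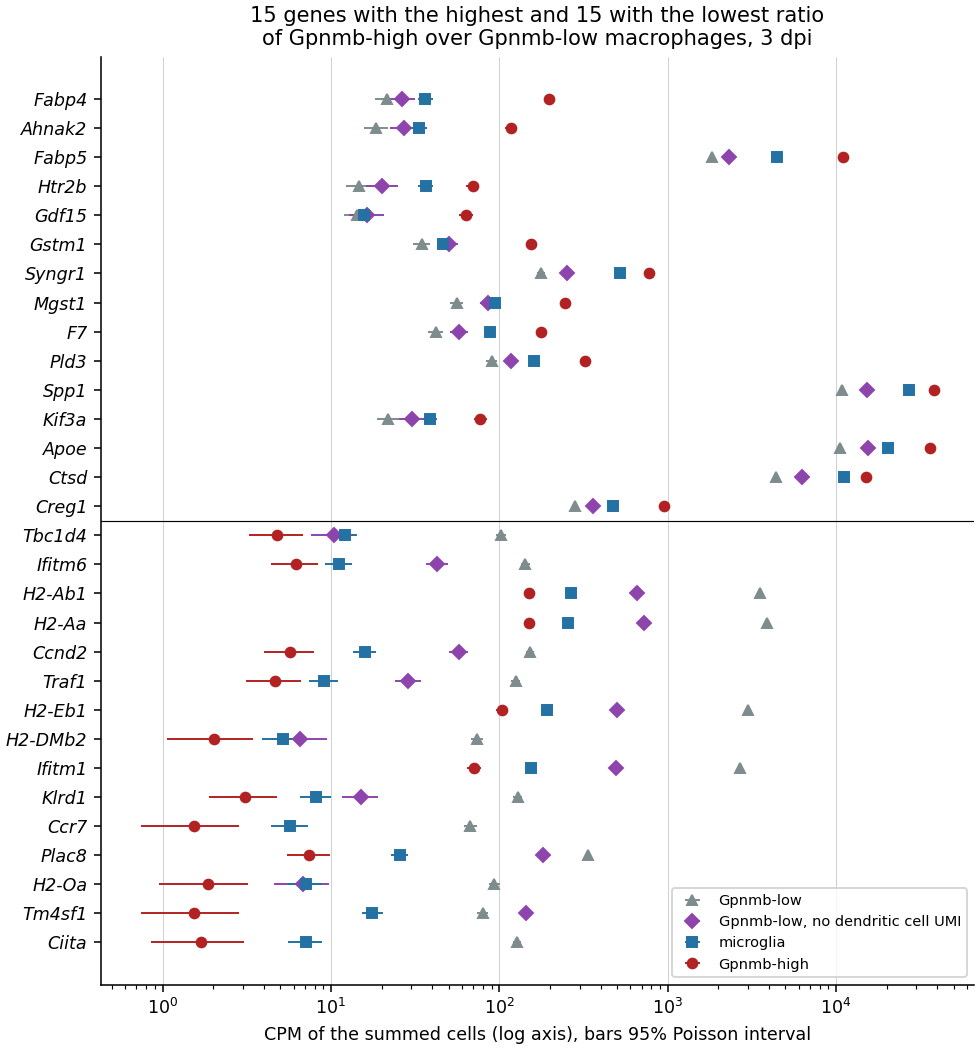
Levels of the 15 genes with the highest (top) and the 15 with the lowest (bottom) ratio, among those with at least 500 UMIs, of Gpnmb-high over Gpnmb-low macrophages at 3 dpi, in CPM of the summed cells on a log axis, with 95% Poisson intervals and with sets at 0 UMIs not drawn. In the upper block the Gpnmb-high cells (circles) lie to the right of the 3 other sets for each gene, and in the lower block the Gpnmb-low cells without a dendritic cell UMI (diamonds) mostly lie between the Gpnmb-high cells and all Gpnmb-low cells (triangles), as for H2-Aa at 150, 726 and 3872 CPM.

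The medians of all 4 lists of lysosomal genes were above that of all genes, though most genes of each list lay within 2-fold. The median was 0.96 for 15 proteases (6 past 2-fold higher and 1 lower), 0.56 for 26 lipid and glycan hydrolases (6 and 1), 0.55 for 15 membrane proteins (3 and 0) and 0.62 for 16 proton pump subunits (3 and 0), beside −0.20 for all genes. The proteases summed to 39078 CPM against 15186. Ctsb stood at 10479 against 3424 (1.61), and Ctsk, a collagen-degrading cathepsin, had the highest ratio of the proteases (41.7 against 6.81, 2.60). Ctsc (205 against 390, −0.93) and Prcp (34.8 against 71.4, −1.04) were lower. Among the hydrolases and their activators, Psap, the precursor of the saposins that present lipids to these enzymes, stood at 6077 against 2101 (1.53), Lipa, the acid lipase of lysosomes, at 406 against 171 (1.24) and Hexa at 602 against 258 (1.22), while the ganglioside activator Gm2a was lower (163 against 445, −1.45). Atp6v0d2, a subunit of the proton pump, had the highest ratio of that list (28.7 against 4.13, 2.78). Cd63 (1.55) and Lamp1 (1402 against 619, 1.18) were past 2-fold higher among the membrane proteins. The 4 MiT/TFE factors lay within 2-fold, with a median of 0.39, which was −0.01 without cells that had a dendritic cell UMI.

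Without cells that had a dendritic cell UMI the lysosomal medians were smaller, at 0.56 for proteases, 0.34 for hydrolases, 0.26 for membrane proteins and 0.41 for the proton pump, beside −0.20 for all genes. In that form 5 of 15 proteases, 3 of 25 hydrolases, 1 of 15 membrane proteins and 1 of 16 pump subunits were past 2-fold higher, and 1 protease was lower. Ctsd was then at a ratio of 1.28, Psap at 1.18 and Atp6v0d2 at 2.15. Lamp1 (0.75), Lipa (0.87), Hexa (0.91), Prcp (−0.32) and Gm2a (−0.48) were then no longer past 2-fold, while Ctsc was, at −1.23.

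The promoters of Lamp1 and Gpnmb are shown because the MiT/TFE factors bind CACGTG, in capitals here, and the 2 genes differ in it (RefSeq, GRCm38.p6, plus strand, chr8:13159061-13159160 and chr6:49036418-49036517).
Lamp1: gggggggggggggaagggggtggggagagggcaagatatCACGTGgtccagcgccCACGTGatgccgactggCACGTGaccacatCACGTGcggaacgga
Gpnmb: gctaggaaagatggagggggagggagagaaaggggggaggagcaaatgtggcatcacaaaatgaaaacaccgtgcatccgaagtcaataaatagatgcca
Lamp1 had 4 matches, the nearest 15 bases before the start, and Gpnmb had 0 in the 250 bases searched, which says only that these letters are not in that window. CACGTG, which reads the same on both strands, was found in 15 of 70 promoter windows of the lysosomal genes (21.4%; 61 of 75 genes matched), in 1 of the 12 chemokine promoters (8.33%) and in 6.02% of all promoters.

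Lipid genes were higher in part. The list of uptake and storage had a median of 0.86 over 15 genes, with 6 past 2-fold higher (Fabp3, Fabp4, Fabp5, Cd36, Trem2 and Lgals3). Trem2, the lipid-sensing receptor of phagocytes, stood at 1272 against 453 (1.49), and the scavenger receptor Cd36 at 133 against 47.9 (1.47). Plin2, the coat protein of lipid droplets, lay within 2-fold at 1144 against 720 (0.67), and Lpl, lipoprotein lipase, stood at 71.2 against 68.2 (0.06). Without cells that had a dendritic cell UMI the list's median was 0.36, with Fabp4 at 2.88, Fabp5 at 2.27, Trem2 at 0.97, Plin2 at 0.25 and Lpl at −0.56, and the median of the lipid export genes was 0.02. Among genes of lipid export, Apoe and Apoc4 (21.5 against 7.05, 1.60) were past 2-fold higher of 11, and the cholesterol pumps Abca1 (216 against 117, 0.88) and Abcg1 (90.7 against 46.7, 0.96) were just within it. Genes of cholesterol synthesis went the other way, with 5 of 15 past 2-fold lower and a median of −0.72, which was −0.15 over 7 genes without the cells that had a dendritic cell UMI.

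Haem and iron genes had a median of 0.86, with 7 of 14 past 2-fold higher. The ferritin chains Ftl1 (33909 against 12964, 1.39) and Fth1 (32376 against 14046) were past 2-fold higher. The haem-degrading enzyme Hmox1 stood at 3290 against 1628 (1.01), Blvrb, biliverdin reductase B, at 367 against 135 (1.45) and the haem transporter Slc48a1 at 237 against 104 (1.18). Cd163, the receptor for haemoglobin, was lower, at 2.78 against 18.8 (−2.73). Without cells that had a dendritic cell UMI the median of this list was 0.44 and 0 of 14 were past 2-fold higher, with Hmox1 at 0.39, Ftl1 at 0.89, Fth1 at 0.77, Blvrb at 0.89 and Slc48a1 at 0.78. Antioxidant genes had a median of 0.48, with Gclm, a subunit of the enzyme that starts glutathione synthesis, past 2-fold higher (192 against 76.1, 1.33), but not without those cells (0.85).

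Clearance and growth factor genes held single genes past 2-fold in both directions. Mertk, which binds dying cells through Gas6, stood at 77.9 against 34.9 (1.16, and 0.57 without cells that had a dendritic cell UMI), and its relative Axl at 13.7 against 31.3 (−1.18). Igf1, the insulin-like growth factor, stood at 51.1 against 17.8 (1.52), with a UMI in 108 of the 410 cells. After thinning, the share with an Igf1 UMI was 11.7% in the 410 cells, 4.35% in Gpnmb-low cells and 0 of 77 in T cells, for which the exact interval reached 4.68%. Genes that mark disease-associated microglia had a median of 1.11 over 18 genes, with 9 past 2-fold higher and 5 lower, the latter including Cst7 (3.55 against 29.7) and Itgax (19.6 against 113, −2.52, and −1.39 without cells that had a dendritic cell UMI). Genes named for the injury-associated macrophages of the study, which were picked on these libraries and so are not independent evidence, had medians of 1.08 (IaMphi1, 10 genes, 5 past 2-fold higher) and −0.16 (IaMphi2, 10 genes, none past 2-fold). In the form without cells that had a dendritic cell UMI these were 0.79, with 3 past 2-fold higher, and −0.38, with 1 past 2-fold lower, and the disease-associated list had a median of 0.66 with 7 of 17 higher and 4 lower.

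**Figure D2:**
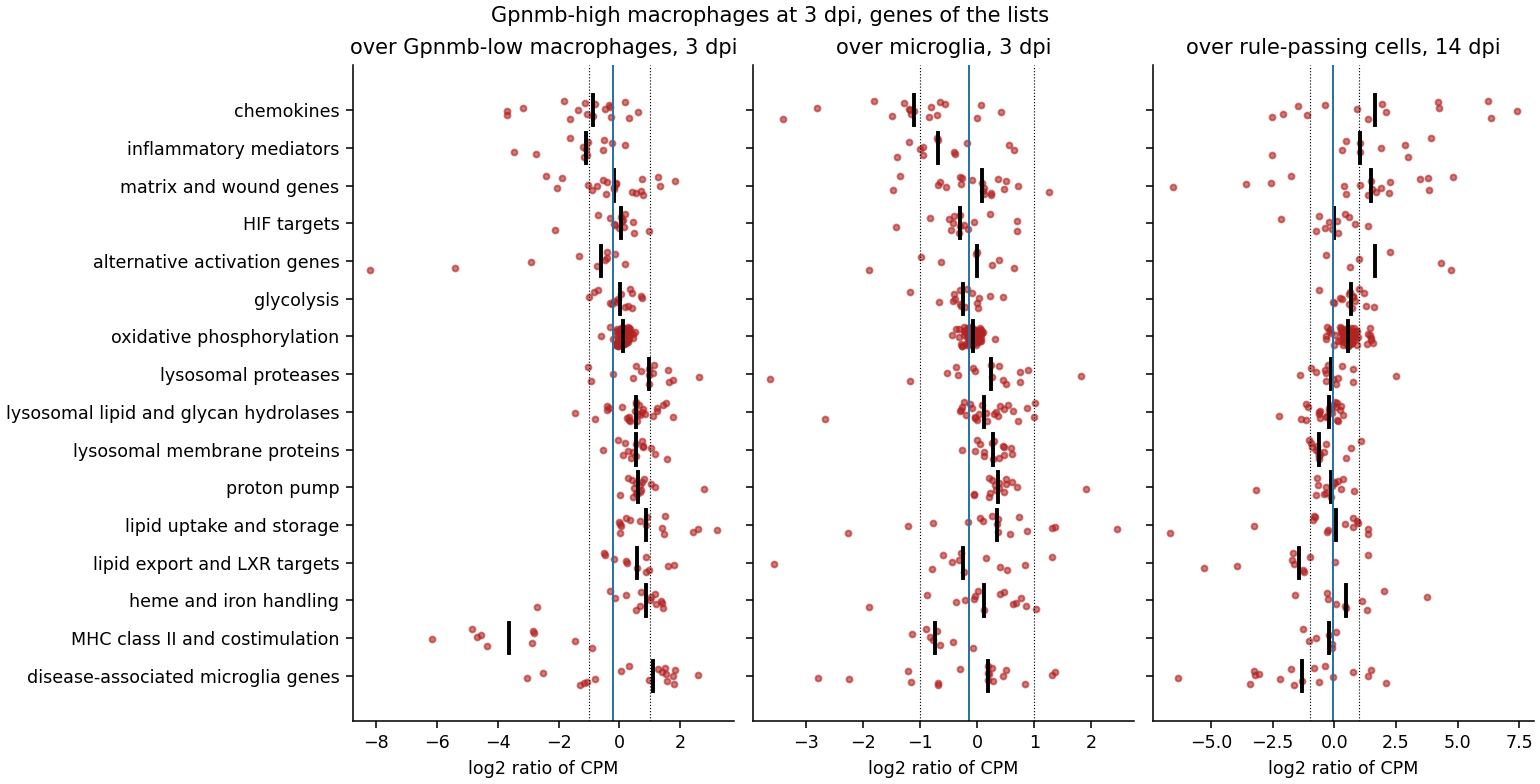
Each point is a gene of the list on the y axis, and the x axis is the log2 ratio of CPM in Gpnmb-high macrophages at 3 dpi over the set above each panel, with the median of the list as a black bar, the median of all genes as a blue line and 2-fold as dotted lines. The bar of lysosomal proteases lies at 0.96, 0.25 and −0.14 from the left panel to the right, and the chemokine bar at −0.85, −1.10 and 1.64.

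Among genes with at least 500 UMIs, the lowest included those of antigen presentation and dendritic cells. Ciita, the master regulator of MHC class II, stood at 1.70 against 127 (−6.17), H2-Oa at 1.85 against 93.5 (−5.60), the monocyte and dendritic cell gene Plac8 at 7.42 against 335 (−5.48), the dendritic cell migration receptor Ccr7 at 1.54 against 67.4 (−5.38) and Tm4sf1 at 1.54 against 79.6 (−5.62). In the Gpnmb-low cells without a dendritic cell UMI, H2-Oa stood at 6.81 CPM, Plac8 at 181 and Tm4sf1 at 144. Genes of MHC class II and costimulation were past 2-fold lower for 9 of 10, with a median of −3.62. Cd74, the invariant chain, stood at 475 against 9780. In the 410 cells Cd74 had a median of 150 CPM per cell and a maximum of 14373, and after thinning 20.7% had an H2-Aa UMI, which was not above the 28.6% of T cells. Without cells that had a dendritic cell UMI the MHC class II median was −2.54 over 7 genes, 6 of them past 2-fold lower, with Cd74 at −2.57 and H2-Aa at −2.73.

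Markers of other cell types moved with these ratios, and their part in the result was not tested. All 9 dendritic cell genes compared were past 2-fold lower, with a median of −4.75, and the 11 genes of that list summed to 39.2 CPM against 429, led by Itgax, with Xcr1 at 0 in the 410 cells. Monocyte genes summed to 1144 against 2230, led by Fn1, with 5 of 9 past 2-fold lower, among them Ccr2, the receptor for Ccl2 (18.1 against 235, −3.70). Ly6c2, their defining gene, was at 0 by the rule. T cell genes summed to 14.2 against 110 with Cd3e at 0 by the rule, neutrophil genes to 424 against 736, led by S100a8, and oligodendrocyte genes to 101 against 217, led by Mbp, with Mog, Cldn11 and Ugt8a at 0. Border-associated macrophage genes summed to 2852 against 2353, mostly through Pf4, while 3 of 11 were past 2-fold lower, 0 higher and the median was −0.26. Lyve1 stood at 1.24 and Cd163 at 2.78, and without cells that had a dendritic cell UMI the median was −0.91. Proliferation genes were past 2-fold lower for 13 of 16, with a median of −1.23. In the Scrublet scoring 13 of the 410 cells and 51 of the 850 were called doublets, with 40 among the 449 that had no dendritic cell UMI.

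Chemokines were lower in part, with 8 of 17 past 2-fold lower, 0 higher and a median of −0.85, while the list summed to 4638 CPM against 5975. Ccl8 (7.26 against 95.2, −3.70), Ccl5 (17.0 against 219, −3.68) and Cxcl10 (9.58 against 87.8, −3.19) had the lowest ratios. Of the neutrophil attractants, Ppbp stood at 7.26 against 25.8 (−1.82), Cxcl3 at 19.3 against 42.2 (−1.12), Cxcl2 at 571 against 999 (−0.81) and Cxcl1 at 19.8 against 27.9 (−0.49). Ppbp, Cxcl1 and Cxcl10 were not above their level in T cells of the same library, 8.64, 25.9 and 83.5 CPM. Pf4, platelet factor 4, was at 1643 against 1446 (0.18), and the monocyte attractants Ccl2 (607 against 494, 0.30) and Ccl7 (535 against 348, 0.62) were on the other side of even. Leaving out cells that had a dendritic cell UMI, Pf4 was at −0.40, Ccl2 at −0.27, Ccl7 at 0.00, Cxcl2 at −1.36, Ppbp at −2.46 and Ccl8 at −4.43. In that form 9 of 17 chemokines were past 2-fold lower and the median was −1.36. In cells with no neutrophil UMI, where 10 chemokines could be compared, the median was on the other side of even, at 0.35. Chemokine RNA was unevenly held within the 410 cells: Cxcl2 had a median of 215 CPM per cell, an upper quartile of 542 and a maximum of 14104, and Pf4 a median of 482, an upper quartile of 1489 and a maximum of 35045.

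The promoters of Cxcl1, Cxcl2 and Cxcl3 are shown because these 3 neutrophil attractants, neighbours on chromosome 5, carry the same motif, for which they were picked. Cxcl1, at its T cell level, gives no direction. The sequences are the RefSeq reference (GRCm38.p6, plus strand, chr5:90891141-90891240, chr5:90903771-90903870 and chr5:90786001-90786100), 100 bases that end before the first base of the transcript, 5′ to 3′. Capitals mark a form of the NF-kB motif (GGG, any 2 bases, then TTTCC) on either strand.
Cxcl1: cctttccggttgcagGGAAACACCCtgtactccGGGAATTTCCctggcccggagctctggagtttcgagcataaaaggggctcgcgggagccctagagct
Cxcl2: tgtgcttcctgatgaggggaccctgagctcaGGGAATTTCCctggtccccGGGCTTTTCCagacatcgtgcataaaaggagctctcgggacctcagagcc
Cxcl3: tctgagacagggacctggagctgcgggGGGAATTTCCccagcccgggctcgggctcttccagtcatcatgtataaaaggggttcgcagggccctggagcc
The motif was found in the 250 bases before the start in 4 of the 12 chemokine promoters matched (33.3%, of 17 genes listed), those of Cxcl1, Cxcl2, Cxcl3 and Ccl9, and in 1.41% of all 32851 promoters in the RefSeq set. A match describes the letters and is not a measured binding site.

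Inflammatory mediators were lower, with 8 of 12 past 2-fold lower, 0 higher and a median of −1.09, and 8 of 12 and −1.17 without cells that had a dendritic cell UMI. The interleukin 1 decoy receptor Il1r2 stood at 10.4 against 114 (−3.46), with 14.4 in T cells, Il1b at 158 against 1064 (−2.75), Tnf at 28.0 against 58.0 (−1.05) and Nfkbia, the feedback inhibitor of NF-kB, at 211 against 454 (−1.11). In the form without those cells, Il1r2 was at −1.96 and Il1b at −2.27. Ptgs2, which makes prostaglandins (−0.23), and Osm (0.18) lay within 2-fold. Interferon response genes were past 2-fold lower for 10 of 20, and for 4 of 17 in the form without those cells, where their median was −0.71.

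Genes of energy metabolism and of hypoxia were near even. HIF targets had a median of 0.07 over 14 genes, with only Ddit4 past 2-fold, at 11.3 against 48.9 (−2.11, and −1.11 without cells that had a dendritic cell UMI, where the list's median was −0.21), and Bnip3l, a mitophagy receptor, the highest at 189 against 96.2 (0.97). Glycolytic genes had a median of 0.00 over 16 genes, with only Pfkp past 2-fold lower (−1.02, and −0.16 without cells that had a dendritic cell UMI), and oxidative phosphorylation one of 0.12 over 64 genes with none past 2-fold. Without those cells the glycolytic median was −0.15, with 1 gene past 2-fold lower, Slc16a3 at −1.03. Matrix and wound genes differed from gene to gene, with 3 of 21 past 2-fold higher and 4 lower, and with 1 higher and 7 lower (median −0.47) without cells that had a dendritic cell UMI. In that form Timp2 was at 0.66, Thbs1 at 0.09 and Fn1 at −1.38. Spp1 was the highest, Timp2, an inhibitor of matrix proteases, stood at 448 against 188 (1.25), Thbs1, thrombospondin 1, at 915 against 545 (0.75), and in the other direction Fn1, fibronectin, at 487 against 907 (−0.90) and Vcan, the proteoglycan versican, at 6.80 against 36.2 (−2.40).

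Sex was called per cell from Xist and 4 Y-linked genes, and the leading differences were found in both sexes, with 197 male cells against 326 and 89 female cells against 188. Fabp5 stood at 11522 against 2023 CPM in male cells and at 10881 against 1654 in female cells, and Ctsd at 15639 against 4616 and 13534 against 4507. Gdf15 was at 60.7 against 11.8 and 59.3 against 18.9. Chemokines differed more between the sexes: Cxcl2 was at 403 against 1006 in male cells (−1.32) and 856 against 1024 in female cells (−0.26), Pf4 at 1406 against 1398 and 1891 against 1121, and the list's median in female cells alone was −0.26 over 13 genes. The difference between the sexes was not tested, since mice could not be told apart.

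Within the 410 cells, a higher Gpnmb level went with more lysosomal and less chemokine RNA. In the classes of Gpnmb 1000 to 2000 (132 cells), 2000 to 4000 (141) and 4000 CPM and over (137), the lysosomal proteases summed to 34736, 37937 and 44613 CPM. Lipid uptake and storage genes summed to 18954, 20471 and 23947, and the chemokines to 6388, 4680 and 2847. Atp6v0d2 stood at 15.1, 25.1 and 46.2, Ahnak2 at 74.1, 118 and 157, and Trem2 at 1054, 1254 and 1508. Hmox1 went down, at 5199, 3260 and 1414, and Plin2 at 1462, 1079 and 894. HIF targets (1417, 1355 and 1379) showed no such order. Gdf15 did not either, at 71.7, 40.3 and 80.1.

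The same lists were followed below the threshold, in Gpnmb-low cells with 0 Gpnmb UMIs (208 cells), with a level above 0 and under 500 CPM (550) and from 500 to 1000 CPM (92). T cells, the background used above, had a median of 208 CPM of Gpnmb. The classes at 0 and under 500 CPM are therefore not separated by a Gpnmb level above background. The lysosomal proteases summed to 11131, 14230 and 27222 CPM in these 3 classes, below the 34736 of the next one. Lipid uptake and storage genes summed to 4214, 5546 and 12956, and MHC class II genes fell from 28146 through 22276 to 4565, and to 1177 in the cells just above the threshold. Dendritic cell genes fell over the same classes, from 561 through 444 and 134 to 36.8 CPM. T cell genes went through 209, 84.6 and 111 to 14.2 and oligodendrocyte genes through 645, 121 and 126 to 92.5. The part of these cell types in the steps was not tested. Fabp5 went through 1116, 1466 and 5158 to 9406 and Hmox1 through 682, 1563 and 3492 to 5199, the latter highest in the class of 1000 to 2000 CPM. Chemokines, at 4968, 6278 and 5722 below the threshold and 6388 just above it, were lowest in the 2 highest classes. HIF targets stayed between 1297 and 1425 in all 6 classes. Median depth was 6567, 9019 and 8580 UMIs in the low classes and about even, from 15014 to 15105, in the high ones, and its part in the steps was not tested.

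**Figure D3:**
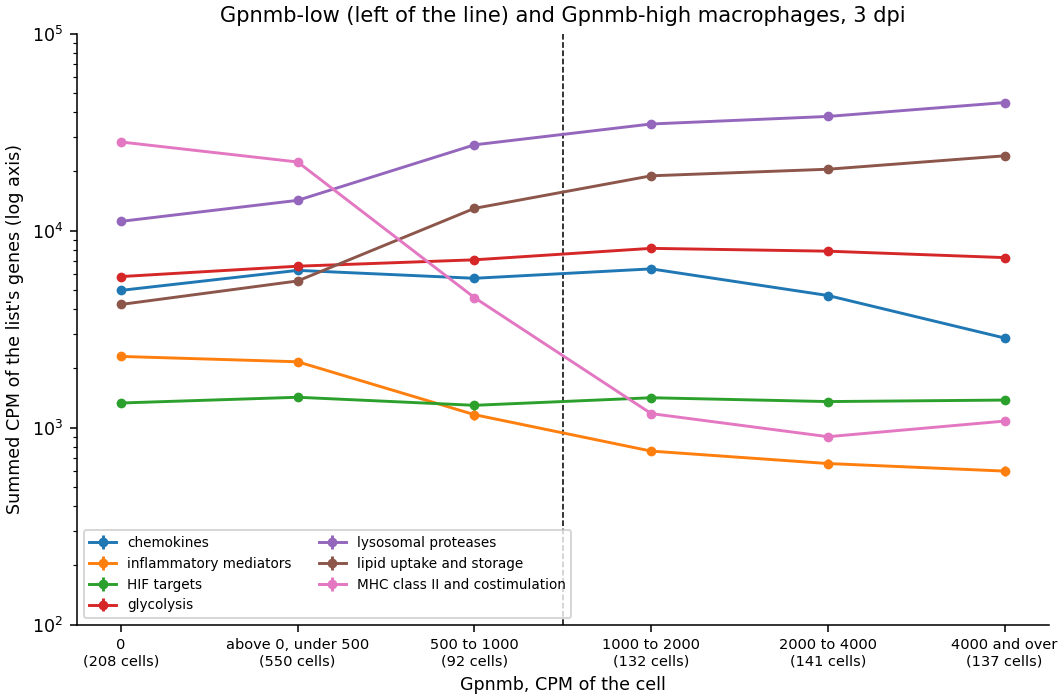
Summed level of 7 gene lists in CPM on a log axis, by the Gpnmb level of the cell, in Gpnmb-low macrophages (left of the dashed line) and the 410 Gpnmb-high macrophages (right of it), with 95% Poisson intervals that are mostly smaller than the points. Lysosomal proteases go from 11131 to 44613 across the 6 classes and MHC class II genes from 28146 to 1079, while chemokines go from 6388 to 2847 within the Gpnmb-high cells.

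On genes other than those of the rule, the 410 cells lay partly together. Of their 20 nearest neighbours in the gate, 55.3% were among the 410, which made up 16.9% of the gate, and 9.38% were Gpnmb-low macrophages, which made up 35.1%. Of 13 clusters in the gate, 2 held 361 of the 410. The first, of 266 cells, held 207 of them, which were 77.8% of that cluster, and 22 of the 850 Gpnmb-low cells. The second, of 694 cells, held 154, which were 22.2%, and 50 Gpnmb-low cells. The other 49 were spread over 7 clusters. Among them were 14 in a cluster led by Plac8, Itgal and Il1rn, 12 in one led by the proliferation genes Pclaf and Birc5 and 9 in one led by the interferon-induced genes Rsad2 and Cxcl10. A cluster of 252 cells led by Klrd1, H2-Oa and Ifitm1 held 251 Gpnmb-low cells and 0 of the 410. At a clustering resolution of 0.3 in place of 0.6, a single cluster held 378 of the 410, so the split into 2 rests on the resolution.

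The members of the 2 clusters differed in chemokines and MHC class II but hardly in lysosomal genes. The clusters were made from these same genes, so the values are a description. Of 5003 genes compared, 30 were past 2-fold higher in the first (0.60%) and 51 in the second (1.02%). Chemokines were past 2-fold lower in the first for 8 of 12, with Pf4 at 692 against 3184 and Cxcl2 at 206 against 841. H2-Aa (59.9 against 197) and Cd74 (190 against 619) were lower in the first, as were the lipid receptor Cd36 (80.3 against 205) and Plin2 (754 against 1695). Gdf15 (83.2 against 26.4), Ahnak2 (157 against 73.4), Igf1 (71.5 against 28.2) and Gstm1 (211 against 84.9) were higher in the first. The lysosomal proteases summed to 41541 against 37776 CPM with a median ratio of 0.07, and Fabp5 (11143 against 12042), Fabp4 (210 against 202) and Spp1 (38521 against 42174) were close in the 2.

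Depth, sex and the Gpnmb level went with the split of the 410 cells. The median was 16751 UMIs in the first cluster's members and 14278 in those of the second. Their median Gpnmb level was 3953 and 2375 CPM. Of cells with a sex call, 120 of 145 were male in the first (82.8%, 75.6 to 88.5%) and 56 of 104 in the second (53.8%, 43.8 to 63.7%), and the sex-linked genes were not left out of the clustering. The part of sex, of the mouse, of depth and of the Gpnmb level in the split was not tested.

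**Figure D4:**
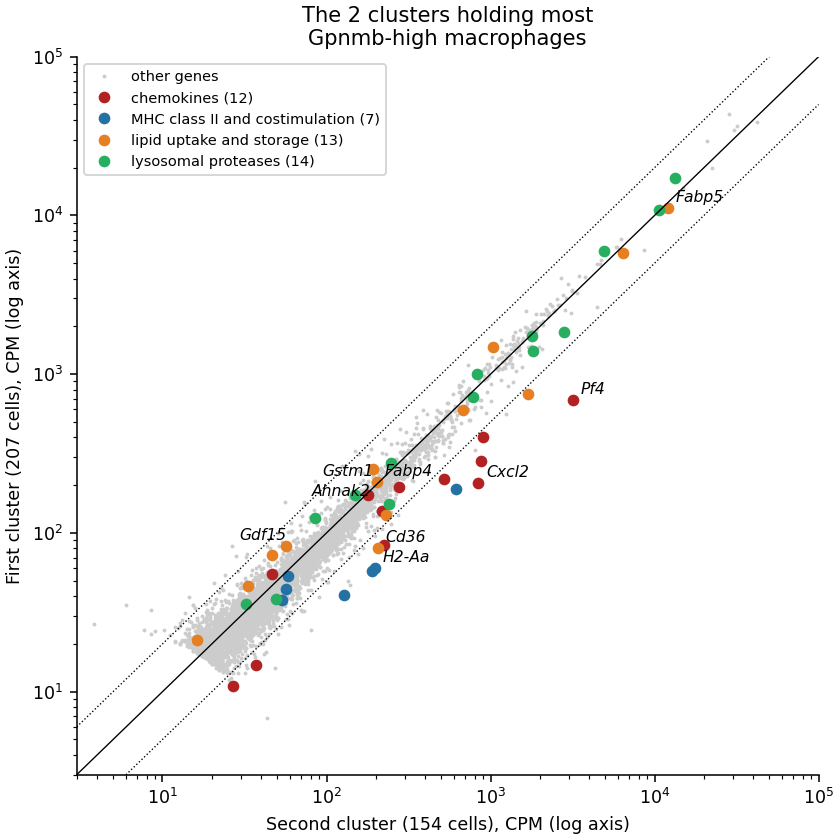
Each point is a gene, with its level in CPM in the 154 Gpnmb-high macrophages of the second cluster (x axis) and the 207 of the first (y axis), both on log axes, with equality as a solid line and 2-fold as dotted lines. Pf4 (3184 against 692), Cxcl2 and H2-Aa lie below the lower dotted line, Gdf15 lies above the upper one, and lysosomal proteases lie along the diagonal.

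Microglia of the same library were compared next, since they also carry lysosomal genes. Cells with at least 3 of the 6 microglial genes and without a Ly6c2 or Csf3r UMI numbered 515, and the 410 macrophages were set against them over 8338 genes, of which 530 were past 2-fold lower in the macrophages (6.36%) and 82 higher (0.983%), with a median of −0.14. With the same minimum of 500 UMIs, the 5 genes with the highest ratio were Fabp4 (199 CPM against 36.4), the immune receptor Slamf7 (69.2 against 15.4), Gdf15 (63.6 against 15.8), Ahnak2 (117 against 33.4) and Gstm1 (153 against 46.4). The lowest included Sparc, a matrix protein of microglia (24.6 against 345), and the tetraspanin Cd81 (26.6 against 362). Gpnmb itself, which the rule used, stood at 3412 against 763 in the microglia. Most lysosomal genes lay within 2-fold of the microglia, with a median of 0.25 for proteases, 0.12 for hydrolases and 0.36 for the proton pump. The proteases summed to 39078 CPM against 29082 and the hydrolases to 10070 against 6050. Spp1 stood at 38272 against 27046 in the microglia and Ctsd at 15078 against 11083, both within 2-fold. Proliferation genes were past 2-fold lower in the macrophages for 19 of 20, with a median of −2.49, and the chemokines were lower here too (9 of 17, −1.10). The microglia held a median of 20507 UMIs, against 15046, and 45 of the 515 were called doublets.

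The same rule found no such cell in the uninjured cord and few at 14 dpi. The macrophage gate held 131 cells in the standard sham library, 71 in the ActD sham library, 2421 at 3 dpi and 527 at 14 dpi. In the sham libraries 0 of 131 cells (exact binomial upper limit 2.78%) and 0 of 71 (5.06%) passed, and none reached 1000 CPM of Gpnmb. At 14 dpi, 42 of 527 cells passed (7.97%, 5.80 to 10.6%). Over the summed gate, Gpnmb stood at 1364 CPM at 3 dpi and 486 at 14 dpi, at 1.05 in the standard sham library (2 UMIs) and at 0 UMIs in the ActD one.

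Lysosomal proteases in the 42 cells of 14 dpi were near the level of the 410, while most chemokines, immediate early genes and lipid export genes differed. They held 473053 UMIs, with a median of 10677. Of 5633 genes compared, 508 were past 2-fold higher at 3 dpi (9.02%) and 470 higher at 14 dpi (8.34%), with a median of −0.04 for 3 over 14 dpi. Ctsd stood at 15078 CPM at 3 dpi and 15449 (15096 to 15807) at 14 dpi. The lysosomal proteases had a median of −0.14 over 14 genes, with 1 past 2-fold higher on each day. The lysosomal membrane proteins had a median of −0.62, and 5 of 24 hydrolases were past 2-fold higher at 14 dpi. Lipid uptake and storage genes had a median of 0.07, with 2 of 14 past 2-fold higher on each day, and MHC class II genes one of −0.23, with 2 of 7 past 2-fold higher at 14 dpi. Fabp4 was at 199 and 239 (197 to 287). Immediate early genes, which dissociation and stress induce, were past 2-fold higher at 3 dpi for 16 of 18, with Fos at 1306 against 99.4. The study describes both libraries as made with ActD, and the part of dissociation in this difference was not tested.

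The genes higher at 3 dpi included those of monocytes and 8 of 14 chemokines, while 4 chemokines were past 2-fold higher at 14 dpi: Ccl3 (183 at 3 dpi and 1055 at 14 dpi), Ccl4 (259 and 562), Ccl5 (17.0 and 71.9) and Cxcl14 (50.4 and 140). S100a4, a calcium-binding protein of motile cells, stood at 679 CPM at 3 dpi and had 1 UMI at 14 dpi, a log2 ratio of 7.74 (5.85 to 13.63), and Ccl7 stood at 535 with 1 UMI at 14 dpi (7.40, 5.50 to 13.29). Pf4 was at 1643 against 21.1, Thbs1 at 915 against 65.5 and Hmox1 at 3290 against 243. Monocyte genes were past 2-fold higher at 3 dpi for 4 of 5. Spp1 (38272 against 13667) and Fabp5 (11070 against 4247) were higher at 3 dpi too.

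The genes higher at 14 dpi included those of lipid export and disease-associated microglia. Apoe stood at 36284 at 3 dpi and 112457 at 14 dpi, the apolipoprotein gene Apoc1 at 25.6 and 996, Lpl at 71.2 and 676, Igf1 at 51.1 and 471 and Mfge8 at 46.8 and 966. Atp6v0d2 went from 28.7 to 256 and the integrin gene Itgax from 19.6 to 161. Lipid export genes were past 2-fold higher at 14 dpi for 7 of 10 (median −1.44) and genes of disease-associated microglia for 9 of 17 (−1.32). Microglial genes were past 2-fold higher at 14 dpi for all 3 compared that the rule had not used, with Fcrls at 118 and 615. Cx3cr1, the fractalkine receptor, stood at 101 and 469. The microglial genes of the rule were limited by the rule itself, and of them P2ry12 had 1 UMI in the 42 cells and Slc2a5 had 0. Of the 42 cells, 9 held 0 of the rule's microglial genes, 16 held 1 and 17 held 2. Other genes of that list were therefore detected in these cells. Day, library and mice cannot be told apart here.

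**Figure D5:**
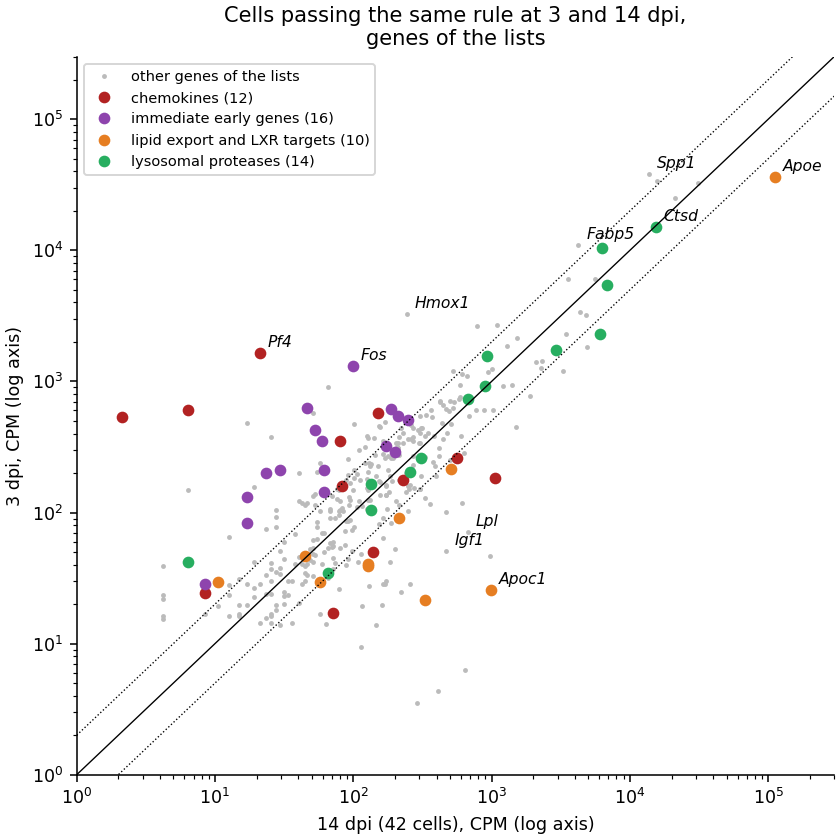
Each point is a gene of the fixed lists, with its level in CPM in the 42 rule-passing cells of 14 dpi (x axis) and in the 410 cells of 3 dpi (y axis), both on log axes, with equality as a solid line and 2-fold as dotted lines; genes with no UMI at 14 dpi are not drawn. Most lysosomal proteases lie along the diagonal, Ctsd at 15449 and 15078, with 1 of the 14 compared past 2-fold on each side. Pf4 and Fos lie above the upper dotted line and Apoc1 and Lpl below the lower one.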

How the data were processed

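CD45+ cells of injured and sham spinal cords were sequenced on the 10x platform (3′ kit), and the deposited files hold whole UMI counts for each gene in each barcode, which the authors made with Cell Ranger on mm10, with software version 3.0.1 in the headers of the standard sham and 3 dpi matrices and 3.1.0 in the others. The deposited counts were used as they stand, and the study's doublet and integration steps were not applied. No cell annotation was used. The members and gene lists were chosen with earlier results of these data known. A further clause of the rule, some genes, which were left out of the lists, and the results that rest on them are not reported here.

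Counts were summed over the cells of each set with Python 3.11.15 (scipy 1.17.1, scanpy 1.11.5) and divided by the sum of all genes. Log2 ratios used a pseudocount of 0.5 UMI and genes with at least 100 UMIs in the 2 sets. Named genes were the 15 highest and 15 lowest ratios against Gpnmb-low cells (the rule gave 5 each way, and the further 10 were added after their values were seen) and 5 each way against microglia, with at least 500 UMIs, leaving out genes of the rule, sex-linked, mitochondrial, haemoglobin, immunoglobulin and ribosomal protein genes and unnamed transcripts. The ratio and interval code was tested on simulated data. Levels of different genes are not corrected for how well each is captured, so levels were compared between sets of cells and not between genes, apart from naming the marker with the most UMIs in a list ("led by").

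Neighbours and clusters (20 neighbours, 30 components, 2000 variable genes, resolution 0.6) left out the genes of the rule. Doublets were scored with Scrublet, and the 927 highest of the 3 dpi library were removed in 1 alternative. Other alternatives changed thresholds, scaling (TMM of edgeR 4.0.16, median of ratios), gene minimums and the cells admitted, and 1 left out cells with a dendritic cell UMI. Gene positions are from GENCODE M21. Of the 31053 features, 30934 were in it.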

Additional observations from a re-analysis of the deposited data

How the results depend on the processing

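All values rest on 1 library per condition, so leaving out a replicate was not possible, and depth limits genes under about 100 UMIs. No paired analysis was possible because each group had 1 library. In the comparison with Gpnmb-low macrophages, medians across 17 alternatives ran from 0.56 to 1.25 for lysosomal proteases, from −5.23 to −2.54 for MHC class II, from −1.79 to −0.69 for inflammatory mediators and from −1.36 to 0.35 for chemokines, which changed sign in 1 alternative. Complement changed sign in 8 (−0.78 to 1.05), matrix genes in 6, glycolysis in 5, MiT/TFE factors (of 16 alternatives) and the IaMphi2 genes in 3 each, HIF targets in 2, and lipid export, alternative activation, interferon response and immediate early genes in 1 each. Values set as main were counts of genes past 2-fold, some list medians, the cells passing the rule and those in the 2 clusters. Of these, 186 moved little and 27 moved more. Of the others, 283 moved little, 37 moved more and 1, the interferon response median given below, was classed as reversed. That class does not hold all the sign changes of medians listed above, so it is not a count of them. A planned change of 1 threshold was not run.

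The counts of genes past 2-fold, 173 higher and 815 lower, became 352 higher with TMM and 371 higher with the median of ratios, 401 lower with cells thinned to 3000 UMIs (4270 genes compared), 268 and 1916 with genes of at least 20 UMIs, 95 and 233 with at least 500 UMIs, 98 higher with a Gpnmb threshold of 2000, 500 lower in male cells and 254 lower in female cells, 104 and 137 in cells with no neutrophil UMI (1268 genes compared), and 64 and 399 in cells with no dendritic cell UMI. With TMM and the median of ratios, the hydrolase median of 0.56 became 0.82 and 0.84 and the proton pump median of 0.62 became 0.88 and 0.90, which was 0.41 without a dendritic cell UMI. In cells with no neutrophil UMI, where few genes could be compared, the medians were 0.93 for hydrolases, 1.997 for lipid uptake, 0.42 for glycolysis, 0.89 for matrix genes, 0.35 for chemokines, −1.79 for inflammatory mediators and 0.19 for 5 interferon response genes. The chemokine median was −0.26 in female cells, and that of MHC class II −5.23 in cells with no proliferation UMI. Apart from the cells or genes each setting leaves out, the cause was not tested. At cluster resolutions of 0.3 and 1.2, chosen after seeing the data, the 2 clusters holding most cells held 394 and 286 of the 410, and at 0.3 a single cluster held 378.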

Other observations

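Against Gpnmb-low macrophages, the medians of the lists not described so far were 0.34 for autophagy, −0.19 for complement, with 3 of 9 past 2-fold lower, −0.43 for immediate early genes, with 3 of 20 past 2-fold lower, and −0.62 for genes of alternative activation, with 4 of 10 past 2-fold lower. Genes the study named for homeostatic macrophages, which were picked on these libraries, had a median of −0.52 with 4 of 9 past 2-fold lower. Markers of cells outside the myeloid lineage were mostly lower in the 410 cells than in Gpnmb-low cells. B cell genes summed to 28.6 against 67.6 CPM, NK cell genes to 6.33 against 42.9, astrocyte genes to 10.7 against 36.8, neuronal genes to 2.47 against 8.39, endothelial genes to 12.5 against 101, fibroblast genes to 4.63 against 80.7. Erythrocyte genes went the other way, at 18.8 against 2.92 CPM, with an Hbb-bs UMI in 10 of the 410 cells and a highest cell of 1973 CPM.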
